A study of Mus musculus with 16 samples.

Results

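Transcripts of 9 enzymes and enzyme subunits of the tricarboxylic acid cycle, Cs, Idh2, Idh3a, Idh3b, Ogdh, Suclg1, Sdha, Fh1 and Mdh2, were followed in mouse liver with and without the nuclear receptor PPARα. They were chosen by name, but with earlier results of these data known. Shares over all genes given beside their counts are therefore a description and no test of the list. All 9 were measured, among 18193 genes with a probe set annotated to them alone. Of the probe sets, 22 are annotated to 1 of these genes alone, and each gene is represented by the probe set with the highest mean over the arrays. Liver RNA of 16 male mice, aged 12 to 20 weeks, was hybridized to Affymetrix whole-genome mouse arrays, 1 array per mouse without pooling. PPARα-null mice (knockout) of substrain 129S4/SvJae received either food with 0.1% Wy14643 by weight, a synthetic PPARα agonist, or control food, for 5 days. Wild-type mice of substrain 129S1/SvImJ received the same foods, and each of the 4 groups held 4 mice. Because the knockout and wild-type mice are of different substrains, the effects of the deletion and of the substrain cannot be told apart in any comparison between them. All levels below are log2 of the deposited intensity. Groups were compared with limma over all arrays, and a gene is said to have risen or fallen when its Benjamini-Hochberg adjusted p was under 0.01 and its fold over 1.5, which is 0.585 on the log2 scale.

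The tricarboxylic acid cycle, in the mitochondrial matrix, oxidizes the acetyl group of acetyl-CoA to carbon dioxide and passes the electrons to NADH and reduced flavin, which feed the respiratory chain. In liver it also receives and gives off intermediates for glucose production, for the urea cycle and for fatty acid synthesis. PPARα is the receptor that switches on fatty acid oxidation in fasting liver, a process that delivers acetyl-CoA to this cycle and to ketone body synthesis.

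Windows of 250 bases before the transcription start are shown for the 3 enzymes that rose with Wy14643 in wild-type liver (Mdh2, Suclg1 and Idh2) and for Sdha, which did not pass the test. The sequences are those of RefSeq on build GRCm38.p6, written in the direction of transcription. They lie at chr5:135778399-135778648 on the plus strand for Mdh2, at chr6:73248255-73248504 on the plus strand for Suclg1, at chr7:80115351-80115600 on the minus strand for Idh2 and at chr13:74350241-74350490 on the minus strand for Sdha. Capitals mark motif matches. In Mdh2 these are 3 copies of the CGCG palindrome, a motif bound by the factor BANP, and 1 cAMP response element (TGACGTCA), and in Sdha 3 copies of the NRF1 element, of which 1 base in the middle may be any letter.
Mdh2: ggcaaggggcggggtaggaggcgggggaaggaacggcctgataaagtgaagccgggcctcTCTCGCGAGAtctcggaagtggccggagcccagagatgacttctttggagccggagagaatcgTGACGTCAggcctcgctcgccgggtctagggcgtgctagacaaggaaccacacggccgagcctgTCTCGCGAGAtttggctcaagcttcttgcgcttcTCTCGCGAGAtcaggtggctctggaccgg
Suclg1: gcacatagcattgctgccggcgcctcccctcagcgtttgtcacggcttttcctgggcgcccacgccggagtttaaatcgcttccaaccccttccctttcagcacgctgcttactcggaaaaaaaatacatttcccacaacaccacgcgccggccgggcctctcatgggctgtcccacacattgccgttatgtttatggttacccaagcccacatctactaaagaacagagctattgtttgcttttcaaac
Idh2: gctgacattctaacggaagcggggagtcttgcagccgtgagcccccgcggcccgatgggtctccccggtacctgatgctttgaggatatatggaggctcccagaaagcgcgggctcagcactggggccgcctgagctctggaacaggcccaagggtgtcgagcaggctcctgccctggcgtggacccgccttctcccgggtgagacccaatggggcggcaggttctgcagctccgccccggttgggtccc
Sdha: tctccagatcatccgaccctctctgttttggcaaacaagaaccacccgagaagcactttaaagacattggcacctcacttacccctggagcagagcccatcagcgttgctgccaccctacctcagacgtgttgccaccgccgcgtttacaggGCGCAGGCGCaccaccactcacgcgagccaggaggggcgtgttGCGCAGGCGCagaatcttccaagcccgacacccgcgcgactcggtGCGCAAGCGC
Both strands were searched, in 13 windows of 8 of the 9 genes, 6 of them for Ogdh. The CGCG palindrome stood 3 or more times in 2 of 32851 windows of this length (0.00609%), Mdh2 being 1 of them, while 0.39% held at least 1 copy. TGACGTCA was in 1.55% of all windows and, besides Mdh2, in 3 overlapping windows of Ogdh. The NRF1 element stood 3 or more times in 23 of all windows (0.07%), Sdha among them, and at least once in 3.74%. The nuclear receptor half-site AGGTCA, found in 14% of all windows, stood once in the window of Fh1 and in no other window of these genes. Its direct repeat with 1 base between both copies, the form that PPARα binds with its partner RXR, is in 0.0335% of all windows and was matched in none of the 13, and neither was TCAAGGTCA, the element of the estrogen-related receptors (0.387%). These 2 elements contain the half-site, so their matches overlap with it. The windows of Suclg1 and Idh2 held none of the 6 motifs. A match is given here as a description of the letters alone.

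The arrays were alike in distribution, with medians of 2.15 to 2.24 log2 units, and their Pearson correlation over all probe sets ranged over 0.987 to 0.995 within groups and 0.961 to 0.993 between groups. The targeted gene is a weak check of the labels, because its probe sets kept signal in the knockout: on Wy14643 the 3 Ppara probe sets differed between knockout and wild-type liver by log2 values of -1.15, -1.43 and -2.20. The hepatocyte list, which includes albumin, had 6 measured markers, all above the highest array median. Striated muscle and adipocyte markers lay at or below that median on their mean over all arrays. Summed striated muscle marker intensity was 18.5 to 23.9 in knockout and 19.6 to 34.1 in wild-type liver on Wy14643. On control food it was 19.6 to 21.0 in knockout and 17.5 to 22.6 in wild-type liver. Summed hepatocyte marker intensity was 49800 to 51600 in knockout and 43900 to 46400 in wild-type liver on Wy14643, and 50500 to 52000 in knockout and 51800 to 53400 in wild-type liver on control food. After Wy14643 in wild type 1 of these 6 markers, Cps1, was called lower, and all 6 differences were below 0. Kupffer cell and macrophage markers summed to 842 to 1100 in knockout and 445 to 531 in wild-type liver on Wy14643. On control food they summed to 939 to 1170 in knockout and 802 to 972 in wild-type liver. Of the 8 markers 6 were lower after Wy14643 in wild type, where 6.74% of all genes were lower and 7.72% higher. Stellate cell and fibroblast markers summed to 1810 to 2290 in knockout and 1070 to 1310 in wild-type liver on Wy14643, and to 1760 to 2010 in knockout and 1620 to 1770 in wild-type liver on control food, with 3 of 8 lower after Wy14643 in wild type. Sinusoidal endothelial markers summed to 857 to 1110 in knockout and 684 to 826 in wild-type liver on Wy14643, and to 881 to 972 in knockout and 906 to 1030 in wild-type liver on control food, with 2 of 8 lower and 1 higher after Wy14643 in wild type. Erythroid markers, of which only Alas2 lay above the highest array median, summed to 644 to 767 in knockout and 91.5 to 126 in wild-type liver on Wy14643, and to 674 to 764 in knockout and 495 to 601 in wild-type liver on control food. The part of these shifts in the results below was not tested, and in whole liver fewer cells of a type and less RNA per cell cannot be told apart.

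The first question was how the cycle responded to the agonist where the receptor was present. After 5 days of Wy14643, Mdh2, Suclg1 and Idh2 rose in wild-type liver, by 1.92-fold, 1.79-fold and 1.81-fold, and no member fell (6.74% of all genes did). Ogdh followed at 1.39-fold and Idh3a at 1.27-fold, while Cs and Sdha stood at 1.01-fold and 0.917-fold. Thus 3 of 9 members were called higher, where 7.72% of all genes were, or 12.4% of the 5170 genes whose mean level exceeded 6 log2 units, a range that holds all members. The groups did not overlap for 7 of the 9, where this held for 29.1% of all genes and 59.4% of those above 6 log2 units. The median of the 9 log2 differences was 0.35, against -0.03 over all genes. At an adjusted p under 0.05 with no minimum fold, limma passed 6 of the 9, all higher, where 13% of all genes and 24.1% of those above 6 log2 units passed in that direction.

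**Figure D1:**
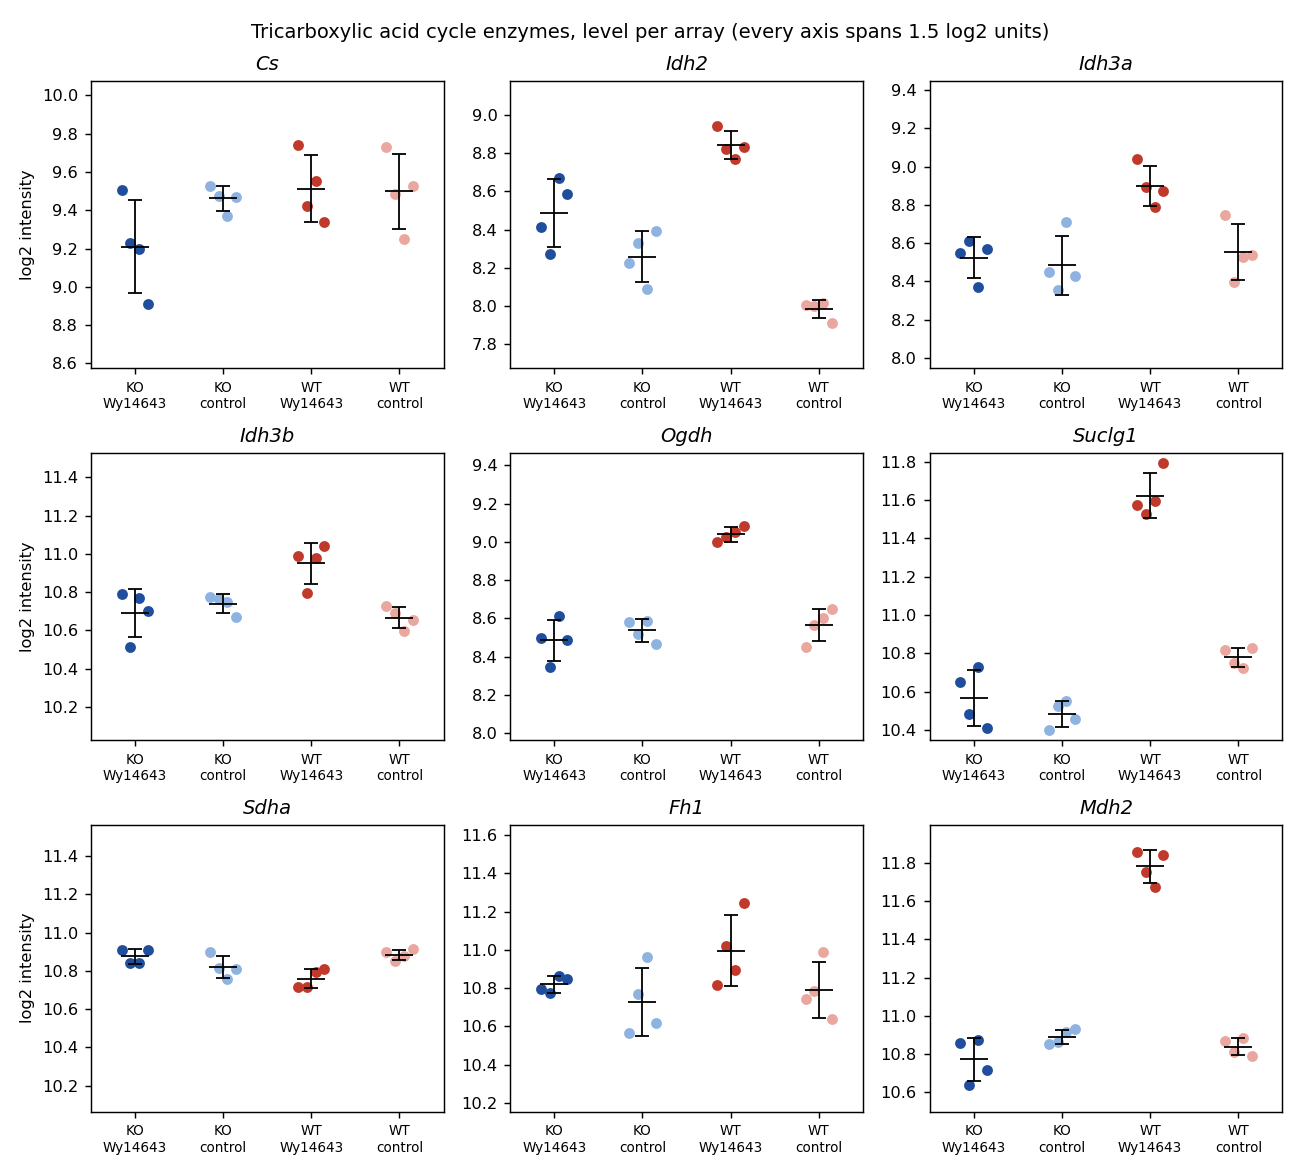
Log2 intensity of the brightest probe set of each of the 9 enzymes (vertical axes, each spanning 1.5 log2 units) by group, with 1 point per mouse, the group mean as a long line and its SD as short bars (n = 4). Wild-type mice on Wy14643 lie above every other mouse for Mdh2, Suclg1, Ogdh, Idh2, Idh3a and Idh3b, by the widest gap for Mdh2 (11.67 to 11.86 against 10.64 to 10.93 in the other groups).

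Citrate synthase, encoded by Cs, joins acetyl-CoA to oxaloacetate and so opens the cycle. Its brightest probe set (number 1450667) read 9.51, 9.23, 9.20 and 8.91 in knockout mice on Wy14643 and 9.53, 9.48, 9.37 and 9.47 in knockout mice on control food. In wild type it read 9.74, 9.42, 9.55 and 9.34 on Wy14643 and 9.73, 9.49, 9.25 and 9.53 on control food. All 4 groups overlapped in part, and the response was 0.01 ± 0.13 in wild type (log2 difference ± SE, limma adjusted p = 0.96). The other probe sets of Cs differed from this one. On number 1422577 the mice on Wy14643 averaged 9.70 ± 0.07 and those on control food 9.05 ± 0.12 in wild type (SD, n = 4 each), a called rise of 0.64 ± 0.12 (limma adjusted p = 0.00081). On number 1422578 the response of wild type was 0.37 ± 0.18, with groups that did not overlap and a limma adjusted p of 0.17. The deposited values do not show which probe set follows the Cs transcript best, so its response has no single value here.

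Isocitrate is oxidized in mitochondria by an NADP-dependent enzyme, encoded by Idh2, and by the NAD-dependent enzyme of the cycle proper, whose catalytic subunit is encoded by Idh3a and a further subunit by Idh3b. Idh2 read 8.42, 8.27, 8.67 and 8.59 in knockout mice on Wy14643 and 8.22, 8.33, 8.09 and 8.39 in knockout mice on control food. It read 8.94, 8.82, 8.77 and 8.83 in wild-type mice on Wy14643, and 8.01, 8.0, 8.02 and 7.91 in wild-type mice on control food. The wild-type mice on Wy14643 were the highest and those on control food the lowest of all groups, with both knockout groups between them. The rise in wild type was 0.86 ± 0.10 (limma adjusted p = 3.4e-06), and over the mean of both Idh2 probe sets, the other of which was dim, it was 0.43 and under the fold threshold. Idh3a lay between 8.79 and 9.04 in wild-type mice on Wy14643 and between 8.40 and 8.75 in those on control food, a difference of 0.35 ± 0.10 that missed both thresholds (limma adjusted p = 0.022). Idh3b lay between 10.80 and 11.04 in wild-type mice on Wy14643 and between 10.60 and 10.73 in those on control food, a difference of 0.28 ± 0.09 (limma adjusted p = 0.024). Neither overlapped between the wild-type groups on these probe sets. The second brightest Idh3b probe set gave 0.13 ± 0.08 in wild type (limma adjusted p = 0.32), and there the wild-type groups overlapped. Both dimmer probe sets of Idh3a that exceeded 4 log2 units on average were called higher, at 0.92 and 0.67, so the size of its response rests on the probe set read.

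Oxoglutarate dehydrogenase, of which Ogdh encodes the decarboxylating component, converts oxoglutarate to succinyl-CoA. Ogdh read 8.50, 8.35, 8.61 and 8.49 in knockout mice on Wy14643 and 8.58, 8.52, 8.59 and 8.46 in knockout mice on control food. It read 9.0, 9.02, 9.05 and 9.09 in wild-type mice on Wy14643 and 8.45, 8.57, 8.60 and 8.65 in wild-type mice on control food. All 4 wild-type mice on Wy14643 exceeded every other mouse. The difference of 0.47 ± 0.08 in wild type passed the p threshold (limma adjusted p = 0.00029) but not the fold threshold.

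Suclg1 encodes the shared subunit of succinyl-CoA ligase, the enzyme that yields GTP or ATP from succinyl-CoA depending on its partner subunit. It read 10.65, 10.48, 10.73 and 10.41 in knockout mice on Wy14643 and 10.40, 10.53, 10.55 and 10.46 in knockout mice on control food. It read 11.57, 11.53, 11.60 and 11.79 in wild-type mice on Wy14643 and 10.82, 10.75, 10.72 and 10.83 in wild-type mice on control food. The wild-type mice on Wy14643 lay far above all others, and the wild-type mice on control food lay above both knockout groups except for 1 knockout mouse on Wy14643. The rise in wild type was 0.84 ± 0.09 (limma adjusted p = 1.7e-06).

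Sdha encodes the flavoprotein of succinate dehydrogenase, the enzyme that the cycle shares with the respiratory chain, and Fh1 encodes fumarase. Sdha spanned 10.84 to 10.91 in knockout mice on Wy14643 and 10.76 to 10.90 in knockout mice on control food, against 10.72 to 10.81 in wild-type mice on Wy14643 and 10.85 to 10.91 in wild-type mice on control food. It was the one member whose wild-type response was below 0, at -0.125 ± 0.071 (limma adjusted p = 0.27), although the wild-type groups did not overlap. The 95% interval of that difference, -0.28 to 0.03, excludes a 1.5-fold change in either direction. Fh1 spanned 10.77 to 10.86 in knockout mice on Wy14643 and 10.57 to 10.96 in knockout mice on control food, against 10.82 to 11.24 in wild-type mice on Wy14643 and 10.64 to 10.99 in wild-type mice on control food. Its groups overlapped, with a response of 0.20 ± 0.11 in wild type (limma adjusted p = 0.24).

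Malate dehydrogenase of the matrix, encoded by Mdh2, closes the cycle by regenerating oxaloacetate and also serves the malate-aspartate shuttle. Mdh2 read 10.86, 10.64, 10.88 and 10.72 in knockout mice on Wy14643 and 10.85, 10.86, 10.91 and 10.93 in knockout mice on control food. It read 11.86, 11.75, 11.67 and 11.84 in wild-type mice on Wy14643 and 10.87, 10.81, 10.88 and 10.79 in wild-type mice on control food. The wild-type mice on Wy14643 exceeded every other mouse, and the other 3 groups overlapped in part. The rise in wild type was 0.94 ± 0.08 (limma adjusted p = 1e-07), and the second Mdh2 probe set gave 1.05 ± 0.08.

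**Figure D2:**
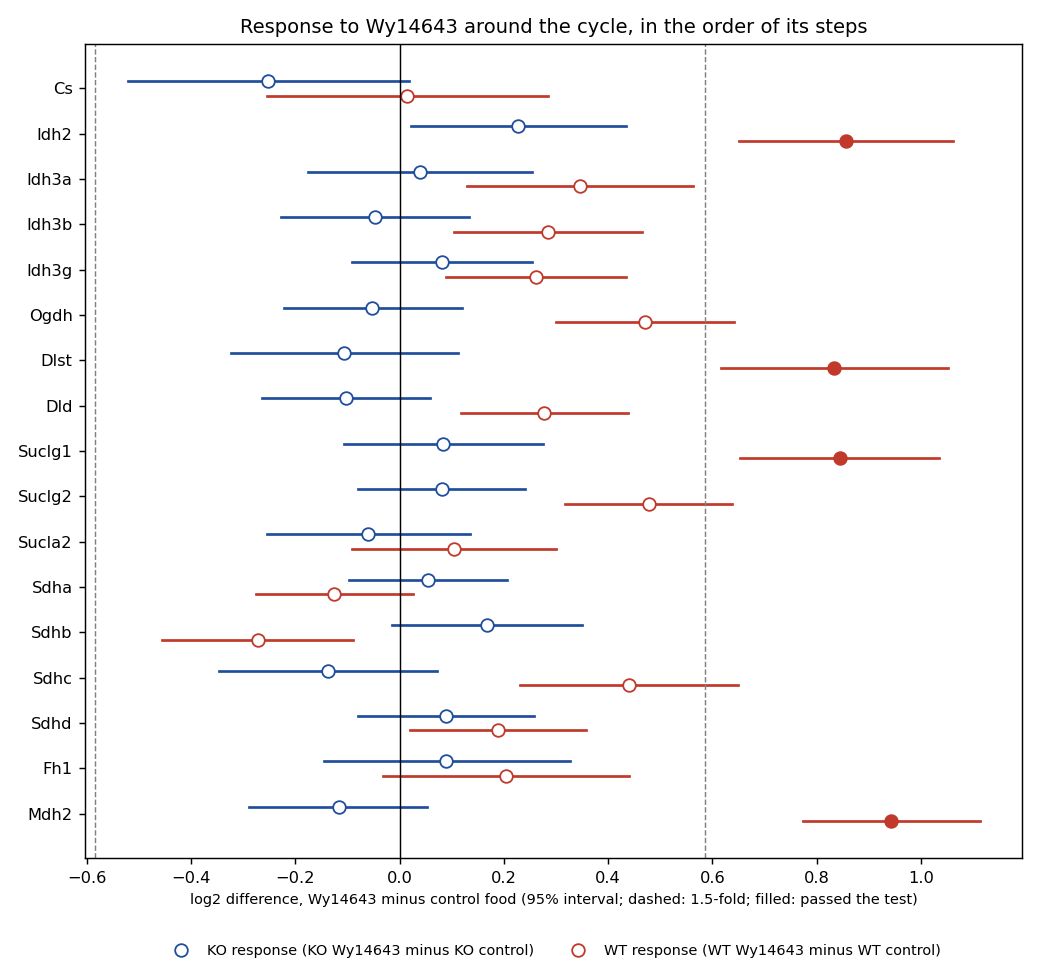
Response to Wy14643 of 17 genes of the cycle in the order of its steps, as the log2 difference (horizontal axis) of Wy14643 minus control food with its 95% interval, in knockout (blue, upper of each pair) and wild-type mice (red, lower). Filled points passed the test and dashed lines mark 1.5-fold, and only wild-type points of Idh2, Dlst, Suclg1 and Mdh2 are filled, at 0.83 to 0.94.

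The same food was then compared in mice without the receptor. In knockout liver 0 of 9 members were called after Wy14643, where 0.0275% of all genes were, and limma gave 0 of 9 at an adjusted p under 0.05 (0.0989% of all genes). At an unadjusted p under 0.05 there was 1, Idh2, with a difference of 0.23 ± 0.10 (limma adjusted p = 0.49) between groups that overlapped. The differences lay between -0.25 for Cs and 0.23 for Idh2, with a median of 0.04 against 0.01 over all genes, and all 9 pairs of groups overlapped (6.38% of all genes did not). The 95% intervals of Mdh2 (-0.29 to 0.05), Suclg1 (-0.11 to 0.28) and Idh2 (0.02 to 0.43) do not reach the fold threshold.

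The difference of both responses was tested as an interaction. It was negative, meaning a smaller response in knockout than in wild type, and called for Mdh2 (-1.06 ± 0.11, limma adjusted p = 4.1e-06), Suclg1 (-0.76 ± 0.13, limma adjusted p = 0.00047) and Idh2 (-0.63 ± 0.14, limma adjusted p = 0.0047). These are 3 of 9 members, against 5.38% of all genes called in that direction and 9.85% of genes above 6 log2 units. Ogdh, at -0.52 ± 0.11, passed only the p threshold (limma adjusted p = 0.0045). The median over the members was -0.33, against 0.04 over all genes. The Idh2 call was lost in 6 of 16 refits without 1 array, with values of -0.69 to -0.56 over all refits: those without replicate 1 of wild type on Wy14643 (-0.60), replicate 1 (-0.61) or 2 (-0.56) of knockout on Wy14643, replicate 2 (-0.60) or 4 (-0.59) of knockout on control food, and replicate 4 of wild type on control food (-0.61).

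Next, the genotypes were set against each other on the same food. These comparisons share their groups with the responses above and are no separate evidence. On Wy14643, Suclg1 (-1.05 ± 0.09, limma adjusted p = 9.4e-08) and Mdh2 (-1.01 ± 0.08, limma adjusted p = 4e-08) were lower in knockout than in wild-type liver, at 0.481-fold and 0.497-fold. These 2 of 9 compare with 8.12% of all genes called lower, or 13.5% of genes above 6 log2 units. Ogdh differed by -0.55 ± 0.08 (limma adjusted p = 5.1e-05), just within the fold threshold, and passed it without replicate 3 of knockout on Wy14643 (-0.60). Idh3a (-0.37 ± 0.10), Idh2 (-0.35 ± 0.10) and Idh3b (-0.26 ± 0.09) had limma adjusted p of 0.013, 0.014 and 0.040, and their groups did not overlap. On the second brightest Idh3b probe set the groups overlapped, with a difference of -0.09 ± 0.08 (limma adjusted p = 0.49). At an adjusted p under 0.05 with no minimum fold, 6 of the 9 were lower, where 13.7% of all genes and 25.6% of those above 6 log2 units were. Sdha was the one member with a difference above 0 (0.115 ± 0.071, limma adjusted p = 0.31), and Fh1 (-0.18 ± 0.11) and Cs (-0.30 ± 0.13) overlapped between genotypes. Cs was called lower in knockout, without overlap, on its probe sets 1422577 (-0.875, limma adjusted p = 3.4e-05) and 1422578 (-0.719, limma adjusted p = 0.0059). On control food 0 of 9 members were called, where 0.544% of all genes were, and 0 had a limma adjusted p under 0.05 (0.945% of all genes), with 2 (Idh2 and Suclg1) at an unadjusted p under 0.05. The groups did not overlap for 2 members, Idh2 and Suclg1, where this held for 8.16% of all genes, and these had the differences farthest from 0. Idh2 was at 0.27 ± 0.10 (limma adjusted p = 0.38) and Suclg1 at -0.29 ± 0.09 (limma adjusted p = 0.26), so that the genotypes differed in opposite directions on the 2 genes, neither beyond the test.

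Genes with several probe sets allowed a check within the gene. The members had 13 further probe sets, of which 7 had a mean above 4 log2 units and 6 were dim, at 0.85 to 2.59. Of the 7, 4 were called higher in wild type on Wy14643 (5.84% of all probe sets were), 5 were called lower in knockout mice when both genotypes received Wy14643 (6.17%), and 3 had a called smaller response in knockout (4.1%). These shares are over all probe sets, dim ones included, and the share among probe sets above 4 log2 units was not computed. The 7 belong to Cs, Idh3a, Idh3b, Sdha and Mdh2. Idh3b and Sdha had none of these calls, and for Sdha the second probe set had a wild-type response of -0.21 ± 0.07. Fh1 and Suclg1 had 1 probe set each.

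**Figure D3:**
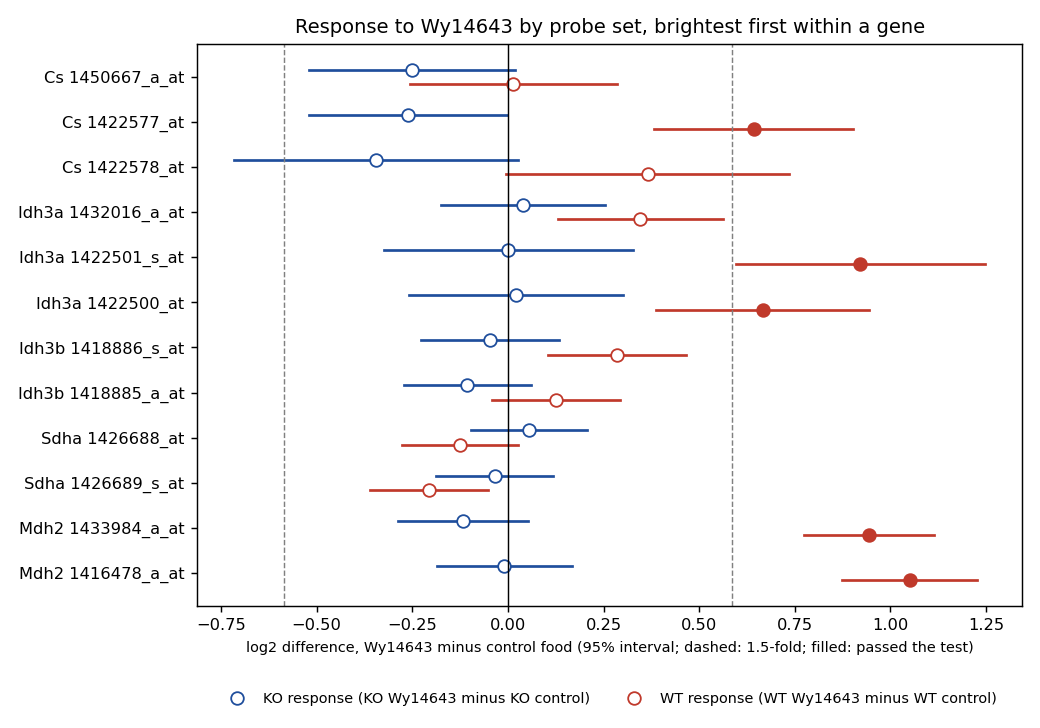
Response to Wy14643 for each probe set with a mean above 4 log2 units of the 5 members that have more than 1 such probe set, brightest first within a gene, as the log2 difference (horizontal axis) with its 95% interval, in knockout (blue, upper) and wild-type mice (red, lower). The Mdh2 probe sets coincide, at 0.94 and 1.05 in wild type, whereas those of Cs spread over 0.01 to 0.64 and those of Idh3a over 0.35 to 0.92.

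The remaining subunits of the same complexes were read next, and 8 genes are reported here. On Wy14643, 0 of the 8 were called in knockout liver, where 0.0275% of all genes were. In wild-type liver 1 of the 8 rose, near the 7.72% of all genes or 12.4% of those above 6 log2 units that did. It was Dlst, which encodes the succinyltransferase core of oxoglutarate dehydrogenase. Dlst averaged 9.20 ± 0.22 in knockout mice on Wy14643, 9.31 ± 0.10 in knockout mice on control food, 10.25 ± 0.05 in wild-type mice on Wy14643 and 9.42 ± 0.11 in wild-type mice on control food (SD, n = 4 each). Its response was -0.11 ± 0.10 in knockout and 0.83 ± 0.10 in wild type (limma adjusted p = 9.2e-06), and the interaction was called at -0.94 ± 0.15. Its second brightest probe set gave 0.06 in wild type. A dimmer one gave 0.72 (limma adjusted p = 0.017, not called) with a called interaction of -1.30 (limma adjusted p = 0.005).

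Among the others, Suclg2, the partner of Suclg1 in the GTP-forming ligase, stood at 0.48 ± 0.08 in wild type (limma adjusted p = 0.00013), and Sucla2, the partner in the ATP-forming ligase, at 0.10 ± 0.09. Sdhc, a membrane anchor of succinate dehydrogenase, stood at 0.44 ± 0.10 (limma adjusted p = 0.0032), and Sdhb, the iron-sulfur subunit, at -0.27 ± 0.09 (limma adjusted p = 0.033). Dld, the dihydrolipoyl dehydrogenase that several complexes share, stood at 0.28 ± 0.08, and Idh3g, the remaining subunit of the NAD-dependent isocitrate dehydrogenase, at 0.26 ± 0.08. Sdhd, the other membrane anchor of succinate dehydrogenase, stood at 0.19 ± 0.08 (limma adjusted p = 0.11). None of these 7 reached the fold threshold on its brightest probe set. The second probe set of Suclg2 was called in wild type at 0.60 ± 0.09 (limma adjusted p = 4.3e-05), between knockout and wild-type liver on Wy14643 at -0.71 and in the interaction at -0.64. The 4 assembly factors of succinate dehydrogenase (Sdhaf1 to Sdhaf4) had no call, with differences of -0.11 to 0.18 in wild type.

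Whether subunits of one enzyme, or the mitochondrial and cytosolic form of one activity, changed unequally was tested on the log2 ratio of both within each array, for 14 pairs chosen after the responses had been seen, with an exact two-sided permutation test whose smallest possible p is 0.0286. In knockout 1 of 14 ratios, Sdha against Sdhb, reached that smallest p. No count after adjustment is read there, because a single pair at that p cannot pass it. In wild type, 10 of 14 ratios changed at that smallest p (exact test, adjusted p = 0.04 over the 14). That p is reached whenever the ratios of both groups do not overlap. The wild-type groups did not overlap for 59.4% of single genes above 6 log2 units, and the share among other gene pairs was not computed. With the pairs chosen after the responses were seen, the adjusted p is a description. Suclg1 gained 0.74 over Sucla2 and 0.37 over Suclg2, Dlst gained over Ogdh (Ogdh minus Dlst changed by -0.36), and Sdhc gained over Sdha (Sdha minus Sdhc changed by -0.57). The ratios were taken on the brightest probe sets. On the second brightest Dlst probe set, at 0.06 in wild type against 0.47 for Ogdh, the direction would turn. The second Suclg2 probe set rose more than the one used here, so on it the gain of Suclg1 over Suclg2 would be smaller. Idh2 gained 0.51 over Idh3a, and among Idh3a, Idh3b and Idh3g no ratio passed, with differences of 0.023 to 0.085 between them and exact p of 0.371 to 0.629. Both statements rest on the Idh3a probe set read, since its dimmer probe sets responded at 0.92 and 0.67, against 0.86 for Idh2 and 0.28 for Idh3b. The ratio of Mdh2 to its cytosolic counterpart Mdh1 changed by -0.13 in knockout (exact p = 0.143) and rose by 0.81 in wild type, at the smallest exact p.

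The enzymes around the cycle were described from 3 further lists. In the cytosol, Me1 (malic enzyme, which makes NADPH and pyruvate from malate) was higher and Acly (ATP citrate lyase, which splits exported citrate for fatty acid synthesis) lower in wild-type liver on Wy14643, at 1.95 ± 0.14 and -1.32 ± 0.19. Me1 averaged 12.51 ± 0.17 in wild-type mice on Wy14643 and 10.56 ± 0.16 in those on control food, and Acly 8.83 ± 0.40 and 10.15 ± 0.38 (SD, n = 4 each). Idh1, the cytosolic NADP-dependent isocitrate dehydrogenase, stood at 0.55 ± 0.08 (limma adjusted p = 5.4e-05, under the fold threshold), and Mdh1 and Aco1 at 0.13 and -0.10. The pyruvate dehydrogenase complex forms acetyl-CoA from pyruvate. Of its 4 genes 1 was called higher, where 7.72% of all genes and 12.4% of those above 6 log2 units were. It was Pdhx, at 0.59 ± 0.11 (limma adjusted p = 0.00084), just above the fold threshold. That call was lost in 4 of 16 refits without 1 array, those without replicate 3 (0.56) or 4 (0.57) of wild type on Wy14643 and replicate 1 (0.54) or 2 (0.51) of wild type on control food.

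Of 10 measured genes by which cycle intermediates enter or leave, 3 fell in wild-type liver on Wy14643 and none rose. Of all genes 6.74% fell and 7.72% rose. Among the 10, Pck2, Me2 and Me3 were dim, at 2.885, 2.383 and 1.278 in wild-type mice on control food, so a call was hardly possible for them. Got1, the cytosolic aspartate aminotransferase, fell by 1.79 ± 0.20. Asl, which releases fumarate in the urea cycle, fell by 1.64 ± 0.14, and Fah, which releases fumarate in tyrosine breakdown, fell by 0.95 ± 0.07. Fah averaged 11.80 ± 0.04 in knockout mice on Wy14643, 11.77 ± 0.03 in knockout mice on control food, 10.80 ± 0.07 in wild-type mice on Wy14643 and 11.75 ± 0.03 in wild-type mice on control food (SD, n = 4 each). Their responses in knockout were -0.34, 0.02 and 0.03, and all 3 had a called interaction above 0, between 0.98 and 1.67, where 4.62% of all genes had one. Pcx, pyruvate carboxylase, which supplies oxaloacetate, stood at 0.43 ± 0.11 (limma adjusted p = 0.0078, under the fold threshold). The knockout response had 0 calls in each of these lists, where 0.0275% of all genes were called.

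**Figure D4:**
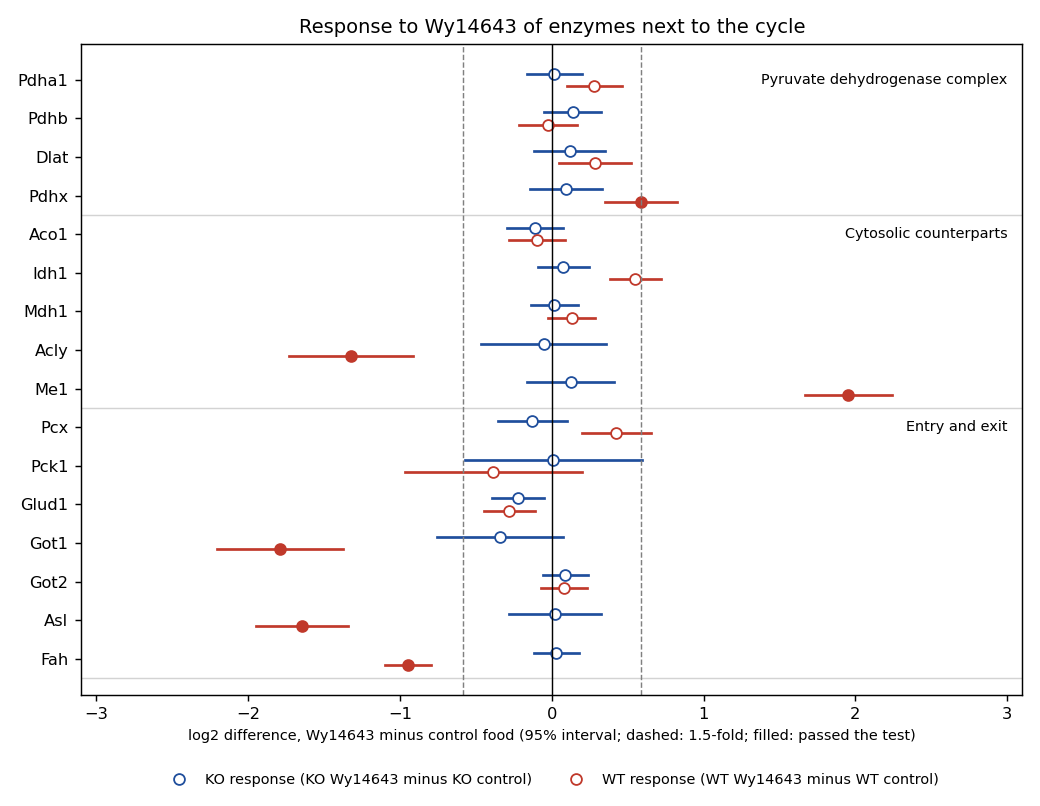
Response to Wy14643 of enzymes next to the cycle, as the log2 difference (horizontal axis) of Wy14643 minus control food with its 95% interval, in knockout (blue, upper of each pair) and wild-type mice (red, lower), grouped from top to bottom into pyruvate dehydrogenase complex, cytosolic counterparts and entry and exit. In wild type Me1 stands at 1.95 and Pdhx at 0.59, both called, and Acly, Got1, Asl and Fah stand at -1.79 to -0.95, whereas no knockout point is filled.

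For scale, 13 genes of mitochondrial content and biogenesis had 0 calls in knockout and 1 call in wild type after Wy14643. Of all genes 0.0275% were called in knockout and 7.72% rose in wild type. The call was Tfam, the factor that packs mitochondrial DNA, at 0.75 ± 0.10 (limma adjusted p = 2.4e-05). In wild type the median over the 13 was 0.27. The wild-type groups did not overlap for 7 of the 13, where this held for 29.1% of all genes. Among the 13, Nrf1, Esrra and Ppargc1a were dim, at 3.30, 3.54 and 3.98 in wild-type mice on control food. Their lack of a call says little. Of a list of known PPARα targets 7 genes were measured, and 0 of the 7 were called in knockout and all 7 rose in wild type, with medians of 0.33 and 3.34. In knockout their differences ran from -1.88 to 1.95, 6 of the 7 being above 0. The knockout groups did not overlap for 4 of the 7, where this held for 6.38% of all genes. Cpt1a was at 0.59 ± 0.13 in knockout (limma adjusted p = 0.10).

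Across the 16 arrays the 36 pairs of members had Pearson correlations of -0.72 to 0.96, with a median of 0.53, and after the group means were removed -0.62 to 0.60, with a median of 0.13. The arrays share their groups and normalization, so these values are a description. The mean of the 9 members was highest in wild-type mice on Wy14643, and 8 of the 9 had their highest group mean there, the exception being Sdha. Among 5117 genes outside the lists with a mean of at least 6 log2 units, those whose levels followed the mean of the members most closely were Hcfc1r1 (r = 0.982), Pnpla8 (0.982), Apmap (0.981), Dnajc15 (0.980) and Bag4 (0.979), each over the 16 arrays. These r include the step between groups, with wild-type responses from 0.75 for Pnpla8 to 2.30 for Apmap. Their r after the group means were removed was not computed. The SD within a group of 4 mice was 0.03 to 0.24 log2 units for the members, with a median of 0.10.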

How the data were processed

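RNA of 16 livers was measured with 1 array each, and the replicates were separate mice. For every probe set the authors deposited an intensity value from each array. The submitters' processing notes name GCRMA 2.20, a method that corrects background from the probes' sequences, quantile-normalizes the arrays and combines the probes of a set. The deposited intensities had array medians of 4.43 to 4.72 and maxima of 18107 to 22364, which is read as a linear scale, so log2 was taken with no offset and no filter, where log2 values had been thought possible. A shift shared by most genes would be removed by this normalization. The number of arrays limits the precision. Of 45101 probe sets, 64 controls were left out and 45037 tested. GEO's platform annotation named 1 gene for 34945, several for 932 and none for 9160, and only the first were used for genes. All 9 members matched with an unchanged symbol.

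Group means were fitted to all arrays with limma 3.58.1 (R 4.3.3) and empirical Bayes moderation, with two-sided tests of 5 contrasts. Benjamini-Hochberg adjustment ran over all tested probe sets within a contrast. Errors are SE of the fit or SD over mice, as stated. A gene's brightest probe set stands for it. All members were named. From each other list at most 4 called genes with the largest change were named, or the 2 brightest where none was called, further genes there having been chosen after their values were seen. Members and lists were chosen with earlier results of these data known. The fit was tested on simulated data. Alternatives were other normalizations, filters, offsets, moderation, array weights, probe set rules, thresholds, the replicate number as a block, only the groups compared, and each array left out. Promoter windows came from RefSeq, and Idh3a had no window there.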

Additional observations from a re-analysis of the deposited data

Results flagged for a closer look

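Idh2 in wild-type mice on control food had 1 array, replicate 4, at 7.91, while the nearest of the other 3 was at 8.0. The gap took up 0.841 of the range of the group, more than Dixon's limit for 4 values. It was 1 of 36 groups of a member that were checked, and chance alone gives about 1 in 20. The response to Wy14643 differed between the genotypes for 3 members by limma's interaction test, each smaller in knockout than in wild type: Mdh2 by -1.06, Suclg1 by -0.76 and Idh2 by -0.63 on the log2 scale.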

How the results depend on the processing

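The number of members called was 0 for the knockout response, 3 for the wild-type response, 2 for the genotypes on Wy14643, 0 on control food and 3 for the interaction. With the probe set of the largest SD, or with the second brightest one (chosen after seeing the data), the counts were 5 for the wild-type response, 4 for the genotypes on Wy14643 and 5 for the interaction, Cs and Idh3a being added, and the medians were 0.64, -0.55 and -0.63. At an adjusted p under 0.05 without a minimum fold, the wild-type response and the genotypes on Wy14643 had 6 each, against 13% and 13.7% of all genes in the same directions. The median for the genotypes on Wy14643 was -0.304 with quantile normalization and -0.30 over the mean of all probe sets, and that for the knockout response was -0.009 with the second brightest probe set. Without 1 array at a time, the counts spanned 0 to 0, 3 to 3, 2 to 3, 0 to 0 and 2 to 3 in the order above, and the medians -0.004 to 0.040, 0.294 to 0.412, -0.388 to -0.308, -0.045 to -0.002 and -0.383 to -0.308. With the replicate number as a block, the counts were 0, 3, 2, 0 and 2, the Idh2 interaction (-0.63) having a limma adjusted p of 0.0124. Of 24 pairs of same-numbered arrays 6 had deviations correlated above 0.1 (r of -0.123 to 0.19), and 21 of 48 best matches had the same number, where 12 would if the numbers were unrelated. This is a hint of pairing from the data, but most pairs did not exceed 0.1, and the numbers were not taken to pair the mice. Apart from the Dlst interaction (0.053 on its second brightest probe set), signs turned only in differences that were not called. On the probe set with the largest SD, Idh3b was at 0.054 in the knockout response, -0.073 in the wild-type response, 0.032 between genotypes on Wy14643, -0.094 on control food and 0.127 in the interaction. In the knockout response Sdha was at -0.035 on the second brightest probe set, and without 1 array Idh3a spanned -0.004 to 0.114 and Idh3b -0.078 to 0.013. Cs was at -0.005 in the wild-type response with quantile normalization and spanned -0.068 to 0.092 without 1 array. On control food Cs was at 0.028 with both other probe set rules and spanned -0.119 to 0.041 without 1 array, Ogdh was at 0.027 over the mean of its probe sets, and Fh1 spanned -0.139 to 0.006 without 1 array. The Idh2 interaction was under the threshold also with quantile normalization (-0.57) and over the mean of both probe sets (-0.29), and the Pdhx call was lost with quantile normalization (0.57) and with an offset of 16 (0.54). The causes were not tested. Using only the arrays of the groups compared gives no value for the interaction, which needs all 4 groups.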
